A study of Mus musculus with 2 samples.

Results

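The cells described here are CD8 T cells of mouse bone marrow, picked by their transcripts from 2 single-cell RNA libraries. FMT_young was made from aged mice of the strain C57BL/6J after transfer of a young gut microbiota, and FMT_aged from aged mice of the same strain after transfer of an aged gut microbiota. Flow sorting collected whole marrow, lineage-negative cells and lineage-negative Kit-positive cells, which were mixed in parts of 1 to 1 to 4 before loading, so shares of cells refer to this mixture and not to marrow as it was in the animal. The labels give neither the ages nor the number of animals behind a library. A called cell held 1000 or more UMIs (unique transcript molecules) of 500 or more genes, with mitochondrially encoded genes making up no more than 10% of them. A CD8 T cell also had at least 1 UMI of Cd3d, Cd3e or Cd3g, at least 1 of Trac, Trbc1 or Trbc2, at least 1 of Cd8a or Cd8b1, and no UMI of Cd4. There were 180 of these among 11932 called FMT_young cells and 227 among 11351 called FMT_aged cells, together 407 of 23283. Because these measured transcripts chose the cells, their own levels are given as a description.

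CD8 T cells recognise peptides held by MHC class I molecules through the T cell receptor, with CD8 as its coreceptor, and kill target cells with perforin and granzymes. Naive CD8 T cells recirculate through lymph nodes with the help of the chemokine receptor Ccr7, while memory and effector cells make Ccl5 and cytotoxic proteins. Bone marrow is a known home of memory CD8 T cells. In aged mice, a population of CD8 T cells that make granzyme K is a well-described feature of many tissues.

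The libraries held 214982156 UMIs for FMT_young and 207642851 UMIs for FMT_aged. With 1 library in each group no difference between groups can be tested. Intervals below are 95% intervals and, with the exceptions that follow, exact ones for counting error only, not the spread between animals or preparations. Those of differences between shares are approximate. Those of list medians describe the spread among list members and not counting error. No barcode of a CD8 T cell occurred in the other library's CD8 T cells, while 34 called barcodes were shared between the libraries, against 19.9 expected from the kit's barcode list.

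Some gated cells carried far more RNA than the others. The median was 3432 UMIs per cell in FMT_young and 2940 in FMT_aged, with ranges of 1216 to 156193 and 1103 to 112974. Above 10000 UMIs lay 35 FMT_young and 24 FMT_aged cells, which held 72.2% and 54.1% of all UMIs of the gated cells. Every one of them had at least 3 UMIs of marker genes of other marrow cell types, with medians of 644 and 302.5 such UMIs, and a doublet score marked 25 and 13 of them. By transcripts, 16 FMT_young and 7 FMT_aged gated cells were also plasma cells, with over 5% of UMIs in Igkc and at least 3 UMIs of Jchain. The 145 FMT_young and 203 FMT_aged cells of at most 10000 UMIs had a median depth of 3092 and 2758 UMIs, spread over a median of 1282 and 1212 genes. In these shallower cells the median count of other cell types' markers was 4 UMIs in FMT_young and 3 in FMT_aged. The doublet score marked 3 and 1 of them. Results are therefore given mainly for the shallower cells, and values for all gated cells stand beside them only in part. This depth limit was chosen after the data were seen: 5 FMT_young and 11 FMT_aged cells lay just below it, between 7500 and 10000 UMIs, and 6 and 4 just above it, up to 15000 UMIs.

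**Figure D1:**
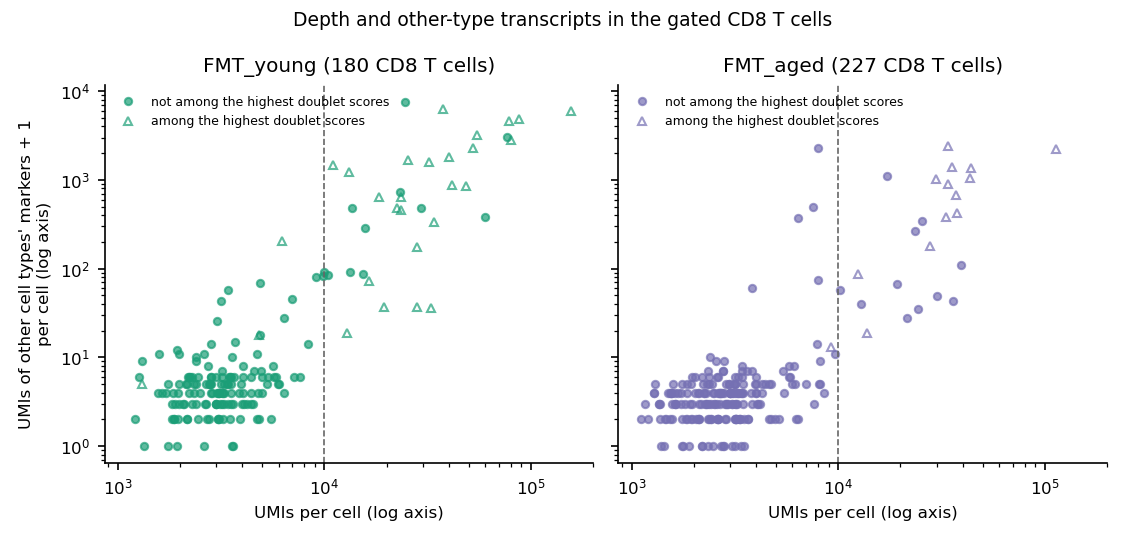
UMIs per cell (horizontal log axis) and UMIs of marker genes of other marrow cell types plus 1 (vertical log axis) for each gated CD8 T cell, FMT_young left and FMT_aged right; triangles are cells among the highest doublet scores and the dashed line is at 10000 UMIs. The 35 FMT_young and 24 FMT_aged cells right of the line lie high on the vertical axis, with medians of 644 and 302.5 such UMIs.

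The gate genes lie in the shallower cells as follows. Cd8a (chr6:71373427-71379173, GRCm38, plus strand), the CD8 alpha chain, had 272 UMIs in FMT_young cells and 399 in FMT_aged cells, and was seen in 80.7% and 82.8% of them. Cd8b1 (chr6:71322788-71337494, plus strand), the beta chain found on conventional CD8 T cells, had 294 and 372 UMIs in 80.7% and 72.9% of cells. The gene pair lies 35.9 kb apart on the same chromosome. For the CD3 chains of the T cell receptor complex, Cd3d had 394 UMIs in FMT_young cells and 670 in FMT_aged cells, Cd3e had 317 and 391, and Cd3g had 321 and 450. Of the receptor constant regions, Trac had 212 UMIs in FMT_young cells and 333 in FMT_aged cells, Trbc1 had 334 and 476, and Trbc2 had 611 and 893. The gate was close for many cells. Among all gated cells, 38 FMT_young and 51 FMT_aged cells had a single CD8 UMI, 38 and 51 had 2, and 104 and 125 had 3 or more. Both chains were seen in 104 FMT_young and 129 FMT_aged cells, Cd8a alone in 33 and 62, and Cd8b1 alone in 43 and 36. Just outside the gate stood 2 FMT_young and 4 FMT_aged T cells with both CD8 and Cd4 UMIs. A further 285 FMT_young and 94 FMT_aged called cells had a CD8 UMI but lacked one of the T cell criteria.

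Of the markers that the gate did not use, Ccl5 was seen in nearly every cell and Gzmk in a part of them. Ccl5 (chr11:83525778-83530518, minus strand), a chemokine of memory and effector T cells and NK cells, was seen in 144 of 145 shallower FMT_young cells (99.3%, interval 96.2 to 100%) and 201 of 203 FMT_aged cells (99.0%, 96.5 to 99.9%). In B cells, which should lack it, the shares were 6.38% and 6.07%. Its median was 40 UMIs per cell in both libraries, with quartiles of 27 and 65 in FMT_young and 23 and 69 in FMT_aged. Gzmk (chr13:113171608-113225908, minus strand), granzyme K, was seen in 75 FMT_young cells (51.7%, 43.3 to 60.1%) and 118 FMT_aged cells (58.1%, 51.0 to 65.0%). It was seen in 8.01% and 5.63% of T cells without CD8 transcript, and in no B cell or NK cell of either library, which allows up to 0.391% and 0.337% of B cells and 1.95% and 1.46% of NK cells. Marker lists of other cell types were measured in the same cells. Any of the 7 NK cell markers was seen in 31.7% of shallower FMT_young cells and 28.6% of FMT_aged cells, with 6 and 7 of them present and summed levels of 620 and 278 CPM (UMI counts scaled to a common total of 1000000 per set of cells). CD4 and regulatory T cell markers were seen in 40.7% and 25.1% (292 and 184 CPM), with Cd4 at 0 by the gate. B cell markers were seen in 6.21% and 5.91% (220 and 128 CPM), and monocyte and macrophage markers in 25.5% and 12.8% (408 and 140 CPM). Some lists reached most cells. Plasma cell markers were seen in 100% of FMT_young cells and 97.5% of FMT_aged cells, with medians of 9 and 4 UMIs and summed levels of 4432 and 4341 CPM, although the plasma cell markers Sdc1 and Iglv1 were at 0 in FMT_young and Iglv1 in FMT_aged. In barcodes under 100 UMIs, which hold free RNA, immunoglobulin constant genes made up 8.65% of UMIs in FMT_young and 4.42% in FMT_aged. Stem and progenitor markers were seen in 80.0% of FMT_young cells and 76.4% of FMT_aged cells, with a median of 1 UMI each, and neutrophil markers in 71.7% and 63.1%, also with a median of 1 UMI each. Transcripts of immature neutrophils were higher in the shallower cells that had no Cd8b1 UMI, 28 in FMT_young and 55 in FMT_aged, whose CD8 UMIs were all of Cd8a. Elane, neutrophil elastase, had 218 CPM in cells with Cd8b1 and 824 CPM in cells without in FMT_young, and 119 and 919 CPM in FMT_aged. Mpo, Prtn3 and Ctsg lay the same way in both libraries. In FMT_aged a single shallower cell held 320 UMIs of the 7 stem and progenitor markers, which include Elane, Mpo and Prtn3. The FMT_aged cells without Cd8b1 held 150, 120 and 111 UMIs of these genes, and those with it 57, 83 and 59. The FMT_aged difference may therefore rest largely on a single cell. The part of these lists in the results between libraries was not tested.

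Shares of cells with a transcript depend on depth, so each cell was also thinned at random to 2000 UMIs, which left 121 of the 145 FMT_young cells and 157 of the 203 FMT_aged cells. At that depth Ccl5 was seen in 99.2% of FMT_young cells and 98.7% of FMT_aged cells, and Gzmk in 43.0% and 47.8%. Over all gated cells the thinned Gzmk shares were 34.6% in FMT_young and 44.2% in FMT_aged. The difference was -9.58 percentage points with an interval of -19.7 to 0.89, which takes in 0. The interval lay below 0 when up to 20% mitochondrial UMIs were allowed (-10.8, -20.7 to -0.52) and when at most 5% were (-11.3, -21.9 to -0.31), and it took in 0 in the shallower cells (-4.80, -16.3 to 6.95). Of the naive and central memory genes, Ccr7 and Lef1 were seen in a minority of cells, while others were not rare. In the shallower cells Cd28 had 363 UMIs in FMT_young and 266 in FMT_aged, and Klf2 543 and 205. Without thinning, Ccr7 was seen in 4.14% of shallower FMT_young cells and 4.43% of FMT_aged cells, and the transcription factor Lef1 in 16.6% and 18.2%. In B cells Ccr7 was seen in 8.33% and 6.85%. Those B cells had no depth limit, with medians of 13067.5 and 9780.5 UMIs, so the shares are not at like depth.

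Other state genes filled in this picture. Their shares are of shallower cells, unthinned. Nkg7, a granule protein of cytotoxic lymphocytes, was seen in 95.9% of FMT_young cells and 98.0% of FMT_aged cells. Eomes, a transcription factor of memory CD8 T cells, was seen in 60.7% and 53.7%, against 0.911% and 0.449% of B cells. Tbx21, which encodes T-bet, was less frequent, with 6.90% of FMT_young cells and 11.3% of FMT_aged cells. For the granule proteins, perforin (Prf1) was seen in 34.5% of FMT_young cells and 35.5% of FMT_aged cells, granzyme B (Gzmb) in 18.6% and 22.2%, and granzyme A (Gzma) in 4.14% and 5.42%. Of these granzymes, granzyme K was seen in the largest share of cells in both libraries. Among receptors tied to chronic stimulation, Pdcd1, which encodes PD-1, was seen in 13.1% of FMT_young cells and 15.3% of FMT_aged cells, and the transcription factor Tox in 37.2% and 41.9%. The marrow-homing integrin chain Itga4 was seen in 75.2% and 71.4%, and the survival receptor chain Il7r in 49.7% and 47.3%. Itgae, which encodes the epithelial residency integrin CD103, was seen in 1 FMT_young cell and in 0 of 203 FMT_aged cells, which allows up to 1.48%. Dividing cells were rare, with Mki67 in 4.83% of FMT_young cells and 3.94% of FMT_aged cells.

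**Figure D2:**
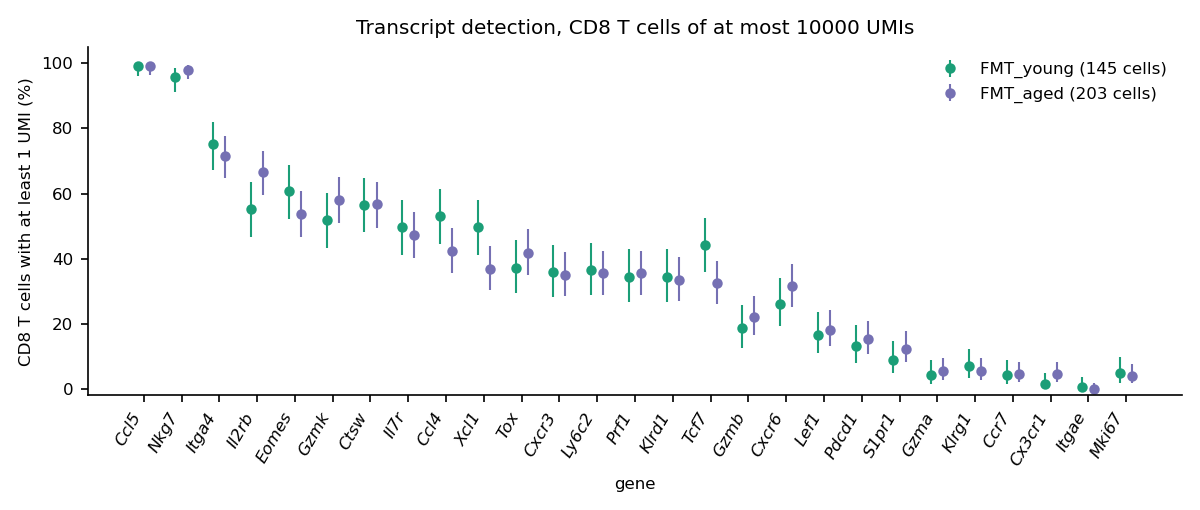
Percent of CD8 T cells of at most 10000 UMIs with at least 1 UMI of each gene, FMT_young (145 cells) left of FMT_aged (203 cells); bars are exact 95% intervals for counting error only. Ccl5 lies at 99.3% and 99.0%, and Gzmk at 51.7% and 58.1%.

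Cells with and without Gzmk differed in other genes, described here for genes picked after their values were seen. In both libraries the interval lay above 0 for 23 genes and below 0 for 22. The share of all genes compared is not given, so these counts carry no test. Their median depths were alike, 3193 UMIs with Gzmk and 3017 without in FMT_young, and 2762 and 2714 in FMT_aged. Maf, a transcription factor found in Gzmk-type and exhausted CD8 T cells, had 413 CPM in cells with Gzmk and 147 CPM in cells without in FMT_young (log2 ratio 1.49), and 301 and 80.7 CPM in FMT_aged (1.90). Tox was higher in cells with Gzmk by log2 ratios of 0.80 in FMT_young and 1.73 in FMT_aged, and the interleukin 10 receptor chain Il10ra by 2.29 and 0.95. Ccl5 was higher as well, by 0.35 and 0.83. Cells with Gzmk had less of the activating receptor Klrk1 (-0.78 in FMT_young and -1.39 in FMT_aged) and of Klf2 (-0.54 and -0.64), a transcription factor of quiescent T cells. Gzma was lower on few UMIs, 9 with Gzmk and 20 without in FMT_young (-1.37), and 22 and 37 in FMT_aged (-1.07). Mitochondrially encoded genes were also among the lower ones, such as mt-Co3 (-0.27 and -0.30) and mt-Nd1 (-0.27 and -0.50).

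The nearest other cells were T cells that passed the CD3 and receptor criteria but had no CD8 UMI, 814 in FMT_young and 1074 in FMT_aged. Cd4 was seen in 10.1% and 11.3% of them and the NK receptor Ncr1 in 47.5% and 48.1%, so this set also holds cells with NK transcripts. In both libraries 48 of 6042 genes (0.794%) were at least 2-fold higher in shallower CD8 T cells than in shallower cells of this set, and 187 (3.1%) were at least 2-fold lower. Over all cells of both sets the counts were 36 of 8924 (0.403%) and 139 (1.56%). Because the gate drew this contrast, the genes describe the cells and carry no test. Gzmb had 168 CPM in CD8 T cells and 6.28 CPM in the other T cells in FMT_young (log2 ratio 4.74), and 178 and 11.6 CPM in FMT_aged (3.94). Gzmk had 332 and 47.1 CPM in FMT_young (2.82) and 349 and 35.7 CPM in FMT_aged (3.29). Genes of receptor signalling stood beside them. Themis, which T cells need for positive selection in the thymus, was higher by 2.93 in FMT_young and 2.55 in FMT_aged, the adaptor Lat by 2.05 and 2.06, the adaptor Grap2 by 1.92 and 2.08, and the surface receptor Cd6 by 2.14 and 1.89. The oxysterol receptor Gpr183, which guides lymphocyte positioning, was higher by 2.41 and 2.77, Adam19 by 2.78 and 3.08, Gramd3 by 2.41 and 2.21, and the gamma chain constant gene Tcrg-C2 by 3.1 and 2.69.

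Lower in CD8 T cells were NK receptors and signalling genes. Klra4 had 0 UMIs in CD8 T cells and 804 in the T cells without CD8 in FMT_young, and 2 and 1413 in FMT_aged. The log2 ratios for Klra8 were -5.01 in FMT_young and -5.42 in FMT_aged, for Klra7 -4.66 and -4.44, for Klri2 -4.39 and -4.45, and for Ncr1 -4.17 and -5.51. Tyrobp, the adaptor of activating NK receptors, had 164 CPM in CD8 T cells and 1625 CPM in the other T cells in FMT_young, and 95.2 and 1694 CPM in FMT_aged. Nrgn had 1 UMI in CD8 T cells and 626 in the other T cells in FMT_young, and 3 and 653 in FMT_aged. Phactr3 had 3 and 382 UMIs in FMT_young and 2 and 650 in FMT_aged, and the cytokine receptor Kit 1 and 350 in FMT_young and 5 and 494 in FMT_aged. Spp1 had 0 UMIs in CD8 T cells of either library, against 136 in the other T cells of FMT_young and 287 in those of FMT_aged. Chosen after their values were seen, further genes place the CD8 T cells. Ccl5 was higher in CD8 T cells than in the other T cells by 1.15 in FMT_young and 1.57 in FMT_aged, Il7r by 1.42 and 1.24, Cd28 by 1.17 and 1.22, and S100a6 by 1.37 and 1.78. Eomes was higher by 0.96 and 0.59, while Tbx21 (-1.37 and -0.81) and the chemokine gene Xcl1 (-1.66 and -1.87) were lower.

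**Figure D3:**
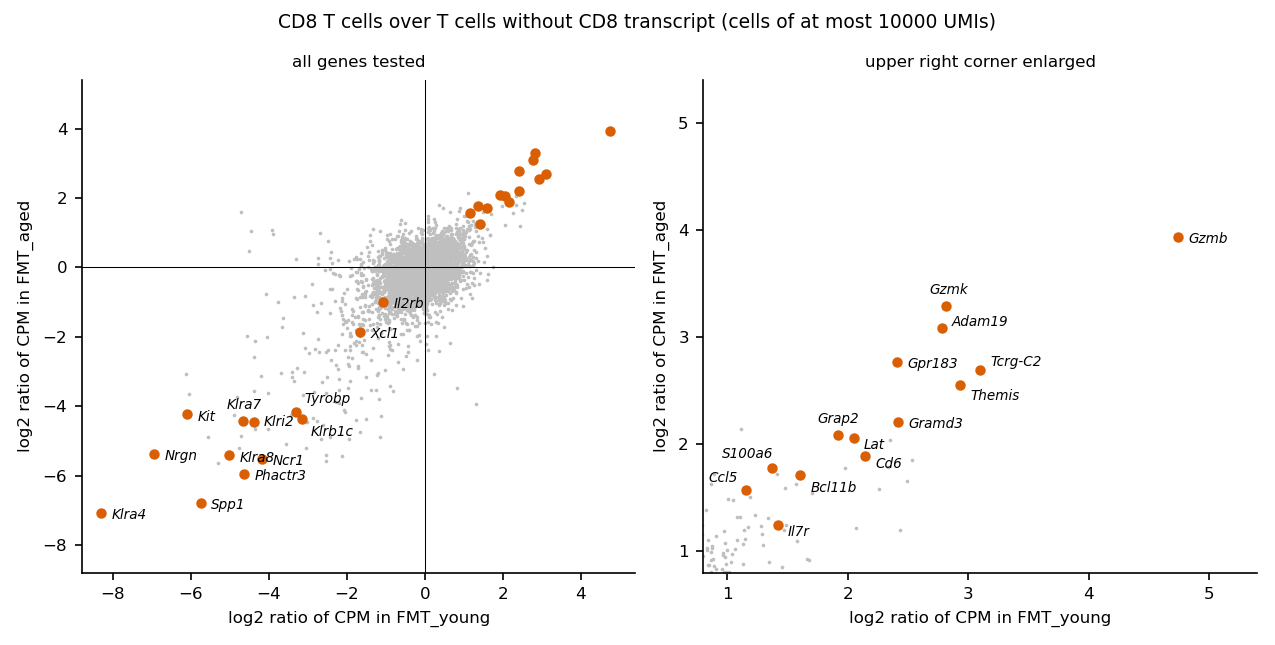
Log2 ratio of CPM in CD8 T cells over T cells without CD8 transcript, both of at most 10000 UMIs, in FMT_young (horizontal) and FMT_aged (vertical), 1 point per gene; the right panel enlarges the upper right corner, and genes with 0 UMIs are drawn with 0.5 UMI. Gzmb (4.74 and 3.94) and Gzmk (2.82 and 3.29) lie far up and to the right, and NK receptors such as Klra8 (-5.01 and -5.42) far down and to the left.

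CD8 T cells made up 1.51% (1.30 to 1.74%) of called cells in FMT_young and 2.0% (1.75 to 2.27%) in FMT_aged, a log2 ratio of -0.41 (counting interval -0.70 to -0.12). Of the gated T cells they made up 18.1% (15.7 to 20.6%) of 996 in FMT_young and 17.4% (15.4 to 19.6%) of 1305 in FMT_aged. For the share of T cells the log2 ratio was 0.055 (-0.24 to 0.34), so a difference in the share of T cells was not detectable at this count. The interval of the share of called cells took in 0 when cells had to hold at least 2000 UMIs (-0.26, -0.58 to 0.055) and when a Cd8b1 UMI was required (-0.24, -0.57 to 0.091). With both CD8 T cells and T cells held to at most 10000 UMIs, the share of T cells was 18.2% of 795 in FMT_young and 17.7% of 1148 in FMT_aged (log2 ratio 0.045). With every cell of 3 or more UMIs of other types' markers left out of both, it was 48 of 232 (20.7%) and 97 of 472 (20.6%, log2 ratio 0.0097). How cells were sorted and mixed bears on the share of called cells, and its part was not tested.

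Between the libraries, 144 of 6342 genes with at least 50 UMIs (2.27%) were at least 2-fold higher in all gated FMT_young cells than in FMT_aged cells, and 141 (2.22%) were at least 2-fold lower. The median log2 ratio of all genes was -0.20, and single values are to be read against that shift. TMM scaling moved the median to 0.0036 and the counts to 209 higher and 52 lower. In the shallower cells 53 of 3094 genes (1.71%) were at least 2-fold higher and 40 (1.29%) at least 2-fold lower, with a median of -0.057. Over all gated cells the leading genes were mostly those of other marrow cells. The higher ones were the immunoglobulin genes Igkv1-117 (518 UMIs in FMT_young, 1 in FMT_aged) and Ighv1-19 (139 and 0), the basophil proteases Prss34 (398 and 11) and Mcpt8 (509 and 84), and the myeloid genes Camp (2389 and 198), Chil3 (759 and 90), Ngp (1780 and 234), Lyz2 (1446 and 192), S100a8 (14633 and 2657), S100a9 (11961 and 3060), Fcnb (477 and 74) and Lgals3 (254 and 44). Among the lower ones, Igha had 71 UMIs in FMT_young cells and 2909 in FMT_aged cells, of which 1 cell held 2883. In the shallower cells the neutrophil genes lay the other way. S100a8 had 178 UMIs in FMT_young and 998 in FMT_aged, S100a9 131 and 1247, Camp 27 and 138, and Ngp 11 and 121, and a single FMT_aged cell held 676, 925, 121 and 111 of these. Likewise a single FMT_aged cell held 136 of 141 UMIs of Ltf (2 in FMT_young) and 172 of 207 UMIs of Jchain (64 in FMT_young). C1qa (61 and 0), C1qb (73 and 1) and Fcgr4 (70 and 2), genes of macrophages, came from at most 3 FMT_young cells each.

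Genes of lymphocytes among those lower over all gated FMT_young cells kept a lower level in the shallower cells. Sh2d1a, the signalling adaptor SAP, had 76 UMIs in shallower FMT_young cells and 162 in FMT_aged cells (log2 ratio -0.73). Cxcr6, a chemokine receptor of tissue-homing memory T cells, had 55 and 120 (-0.77), and the protease inhibitor gene Serpina3g 74 and 175 (-0.88). Over all gated cells Ctla2a (536 and 885 UMIs, -1.09), Clec2d (112 and 199, -1.20) and Tcrg-C2 (42 and 87, -1.42) were lower as well. In the shallower cells they differed by less, with 419 and 734 UMIs for Ctla2a (-0.45), 64 and 147 for Clec2d (-0.84) and 37 and 84 for Tcrg-C2 (-0.83). Over all gated cells Myl10 (4 and 72), Adgrg1 (36 and 97), Klk8 (30 and 74) and Atp2b4 (48 and 104) were also lower, while the shallower cells held few UMIs of Myl10 (1 and 4) and Adgrg1 (3 and 17). Lars2, a mitochondrial tRNA ligase gene, had 81 UMIs in shallower FMT_young cells and 255 in FMT_aged cells (-1.30). Its ratio was -1.51 in T cells without CD8 transcript, -1.52 in NK cells and -1.16 in cells outside the T cell gate, so it was not particular to CD8 T cells. Nor did Lars2 stand alone. With the gene models Gm42418 and AY036118 it took 0.296% of UMIs in shallower FMT_young cells and 0.770% in FMT_aged cells (-1.38), and all 3 were lower. What lay behind this was not tested. Ribosomal protein genes took 30.3% of UMIs in shallower FMT_young cells and 30.1% in FMT_aged cells, and mitochondrially encoded genes 3.25% and 3.64%. Immunoglobulin genes took 0.448% and 0.417% there, against 12.5% and 5.73% over all gated cells.

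Immediate early genes stood out among the gene lists. These genes are transcribed within minutes of stimulation, receptor signalling, stress or tissue handling, without new protein synthesis. Of 36 list members with at least 10 UMIs in the shallower cells, 35 were higher in FMT_young and 1 lower, against 44.7% of all genes higher, and 18 were at least 2-fold higher, against 4.86% of all genes. The median log2 ratio of the list was 1.00 in the shallower cells and 0.76 over all 37 members in all gated cells, of which 35 were higher against 32.2% of all genes there. The medians of all genes were -0.057 and -0.20. Pim1 was the exception, with 120 UMIs in FMT_young and 173 in FMT_aged (-0.17).

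Promoters of a pair of these genes are printed to show the kind of sequence that lies before them, the 250 bases before the start site on the gene's strand from RefSeq on GRCm38.p6. Dusp1 was chosen for its cAMP response element, TGACGTCA, in capitals (chr17:26508473-26508722, minus strand), and Klf2 for its GC boxes, GGGCGG, in capitals (chr8:72318812-72319061, plus strand).
Dusp1: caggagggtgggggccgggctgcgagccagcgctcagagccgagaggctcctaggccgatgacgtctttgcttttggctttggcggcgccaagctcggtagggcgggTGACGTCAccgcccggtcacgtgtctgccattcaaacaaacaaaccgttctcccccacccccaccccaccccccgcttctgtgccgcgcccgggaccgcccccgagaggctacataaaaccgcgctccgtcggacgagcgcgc
Klf2: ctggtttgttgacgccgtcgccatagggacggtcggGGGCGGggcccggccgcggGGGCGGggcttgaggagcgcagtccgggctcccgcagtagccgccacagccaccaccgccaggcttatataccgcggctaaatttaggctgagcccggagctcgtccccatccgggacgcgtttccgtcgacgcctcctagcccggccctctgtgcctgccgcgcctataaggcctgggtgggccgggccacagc
The element TGACGTCA, which reads the same on both strands, was found in 4 of the 31 list genes with a promoter in the RefSeq table (12.9%: Btg2, Dusp1, Maff and Ppp1r15a), against 478 of 27025 genes (1.77%). GGGCGG on either strand was found in 27 of 31 (87.1%), against 9555 of all genes (35.4%). All genes here are those of the RefSeq table, whether or not they were seen in these cells, so the shares are not of like genes. A match describes the letters and not binding.

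Klf2 led the list among abundant members. It had 543 UMIs in the 145 shallower FMT_young cells (1085 CPM) and 205 in the 203 FMT_aged cells (320 CPM), a log2 ratio of 1.76 (1.53 to 2.0). It was seen in 62.8% of FMT_young cells and 41.4% of FMT_aged cells, and after thinning in 62.0% and 33.1%. The ratio was as large in other lymphocytes, 2.01 in T cells without CD8 transcript and 2.15 in NK cells, and 1.90 in cells outside the T cell gate. Nr4a1, which T cell receptor signalling induces, had 45 UMIs in FMT_young and 2 in FMT_aged (4.85, 2.91 to 7.94), in 27 and 2 cells. In the other T cells its ratio was 1.54 and in NK cells 1.70. The transcription factor Egr1 had 289 UMIs in FMT_young and 110 in FMT_aged (1.75, 1.43 to 2.08), in 57.9% and 29.6% of cells, and ratios of 0.99 in the other T cells and 0.56 in NK cells. Dusp1, a phosphatase that switches off MAP kinases, had 344 and 144 UMIs (1.61, 1.33 to 1.90), against 0.79 in the other T cells and 0.78 in NK cells.

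The AP-1 subunits were higher by less. Fos had 720 UMIs in FMT_young and 430 in FMT_aged (1.10, 0.93 to 1.28), Jund 843 and 506 (1.09), Fosb 764 and 538 (0.86), Junb 726 and 517 (0.85), and Jun 797 and 615 (0.73). Of the other members, Klf6 had 632 UMIs in FMT_young and 332 in FMT_aged (1.29), Nr4a2 138 and 69 (1.36), Atf3 18 and 2 (3.53, 1.47 to 6.68), and the early activation and retention receptor Cd69 394 and 276 (0.87). Cd69 was seen in 80.0% of FMT_young cells and 56.7% of FMT_aged cells, and after thinning in 62.8% and 50.3%. Without every cell of 3 or more UMIs of other types' markers the median of the list was 1.02. The list was higher in other cells too. Its median was 0.51 in T cells without CD8 transcript (31 of 37 higher), 0.40 in NK cells (26 of 37), 0.74 in B cells (36 of 37) and 0.81 in cells outside the T cell gate (35 of 37). With 1 library each, these sets cannot be compared by a test, and how the samples were handled and what the animals received cannot be told apart.

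**Figure D4:**
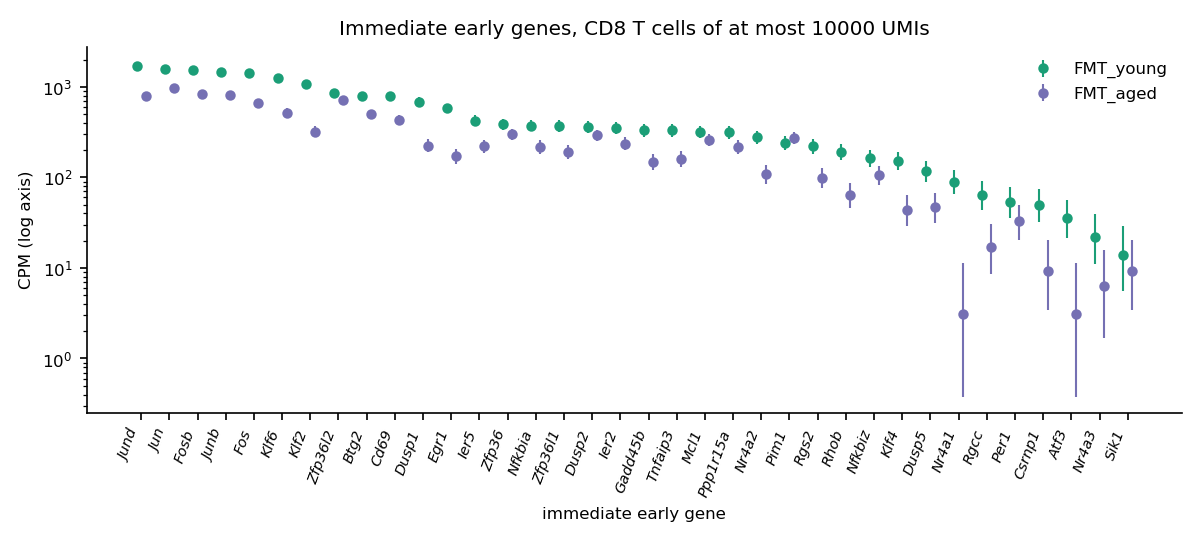
CPM (log axis) of each immediate early gene with at least 10 UMIs in CD8 T cells of at most 10000 UMIs, FMT_young left of FMT_aged, ordered by level in FMT_young; bars are exact 95% intervals for counting error only. FMT_young lies above FMT_aged for 35 of 36 genes, for example at 1085 and 320 CPM for Klf2, and below it for Pim1.

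Other stress and signalling genes accompanied this. Of 25 heat shock and unfolded protein genes in the shallower cells 18 were higher in FMT_young and 7 lower, with a median of 0.27, where 44.7% of all genes were higher. The chaperone gene Hsph1 had 304 UMIs in FMT_young and 137 in FMT_aged (1.51), Dnaja1 418 and 289 (0.89) and Dnajb1 459 and 331 (0.83), while Herpud1, an endoplasmic reticulum stress gene, had 11 and 35 (-1.31). The heat shock list was not particular to CD8 T cells. In T cells without CD8 transcript and in NK cells 18 of 25 members were higher too, each with a median of 0.17, and in B cells 9 of 25 (-0.046). Of 20 NF-kB subunits and targets 14 were higher and 6 lower, with a median of 0.34 in the shallower cells and 0.017 in all gated cells. The feedback inhibitor Tnfaip3 had 165 UMIs in FMT_young and 102 in FMT_aged (1.05), Nfkbia 187 and 139 (0.79), and the adhesion molecule Icam1 101 and 71 (0.87). The NF-kB list had a median of 0.080 in T cells without CD8 transcript, with 11 of 20 higher against 37.3% of all genes. In NK cells it was 0.050, with 12 of 20 higher against 40.3%. Outside the lists, Chka, the first enzyme of phosphatidylcholine synthesis, had 167 UMIs in FMT_young and 48 in FMT_aged (2.16, 1.69 to 2.65), in 49.7% and 17.2% of cells. Its ratio was 1.04 in the other T cells and 0.47 in NK cells. Also higher in the shallower FMT_young cells were Gadd45g (54 and 14 UMIs, 2.31), Dnajb4 (55 and 16, 2.14) and Fbxl18 (39 and 11, 2.18), and lower were Stmn1 (18 and 63, -1.45) and Lrmp (19 and 64, -1.39).

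Effector cytokines and chemokines went both ways, with 6 of 14 list members higher and 8 lower in the shallower FMT_young cells and a median of -0.019. Of all genes there, 44.7% were higher. Ifng, interferon gamma, had 142 UMIs in FMT_young and 99 in FMT_aged (0.88, 0.50 to 1.26), in 45.5% and 25.6% of cells, with ratios of 0.58 in the other T cells and 0.95 in NK cells. Tnf had 29 and 15 UMIs (1.31), and Xcl1, which attracts cross-presenting dendritic cells, 164 and 155 (0.44). Ccl5 was lower in summed level, with 7264 UMIs in FMT_young and 12019 in FMT_aged, or 14520 and 18749 CPM (-0.37, -0.41 to -0.33). Yet the median cell held 40 UMIs in both. Over all gated cells its ratio was -0.89, and it was 0.047 in the other T cells and 0.071 in NK cells. Ccl4 rested on 1 cell: it had 313 UMIs in FMT_young and 542 in FMT_aged (-0.43), of which 1 FMT_aged cell held 323. Without the highest cell of each library it had 279 and 219 UMIs (0.73).

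Cytotoxic and memory genes had medians nearer 0 in the shallower cells than over all gated cells. Of 17 cytotoxic granule genes 5 were higher in FMT_young and 12 lower, with a median of -0.14, and of 29 memory and effector genes 10 were higher and 19 lower, with a median of -0.075. Of all genes there, 44.7% were higher. Of the memory and effector genes, 4 had an interval above 0 and 9 below it, and of the cytotoxic genes 0 and 3. The share of all genes with such intervals is not given here, so these counts are not read further. Over all gated cells the cytotoxic and memory medians were -0.50 and -0.45. Without cells of 3 or more UMIs of other types' markers, the cytotoxic median was -0.53 (-0.74 to -0.025) and the memory and effector median -0.14. This interval describes the spread among list members and not counting error. For Nkg7 there were 950 UMIs in FMT_young and 1544 in FMT_aged (-0.34). Ctsw, a granule protease, had 128 and 208 (-0.34), and Gzma 29 and 59 (-0.67). Gzmk had 166 and 224 UMIs (-0.075, -0.37 to 0.22) in the shallower cells, and a ratio of -0.74 over all gated cells. In the shallower cells Eomes (252 and 220 UMIs, 0.55), Zeb2 (63 and 50, 0.69), which acts with T-bet in effector cells, and Ahnak (314 and 247, 0.70) were higher. Over all gated cells Eomes was not higher, with 166 CPM in FMT_young and 185 CPM in FMT_aged. Lower in the shallower cells were S100a6 (434 and 799, -0.52), Ccr2 (45 and 125, -1.12) and Cx3cr1 (2 and 18), a receptor of terminal effector cells. In the other T cells Ccr2 was lower too (-0.65), while S100a6 (-0.11) and Ahnak (0.041) were near the median of all genes.

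Naive and central memory genes were more often lower, 16 of 20 against 4 higher, with a median of -0.41 in the shallower cells, where 55.3% of all genes were lower. The chromatin organiser Satb1 had 40 UMIs in FMT_young and 81 in FMT_aged (-0.66). Ccr9, a gut-homing receptor, had 1 and 14. Higher among them were Klf2, which is also an immediate early gene, the costimulatory receptor Cd28 (363 and 266, 0.81) and the kinase Txk (125 and 116, 0.47). Cd28 was also higher in the other T cells (0.86) and NK cells (1.52). Chemokine and egress receptors were lower in 10 of 14 members, with a median of -0.49, led by Ccr2 and Cxcr6. Cxcr4, the receptor that holds cells in marrow, had 67 and 42 UMIs (1.03). Inhibitory receptor and exhaustion genes, a list that also holds Nr4a1, were divided 9 and 9, with Ctla4 higher (48 and 30, 1.04) and Lag3 lower (18 and 49, -1.09). Genes often listed for age-associated Gzmk-type cells, some of which stand in the lists above, were higher in 3 of 12 members and lower in 9, with a median of -0.13. Over all gated cells 2 of the 12 were higher and 10 lower, with a median of -0.78. Of all genes there, 32.2% were higher, with a median of -0.20. The 33 genes of receptor signalling had a median of -0.035 in the shallower cells. Over all gated cells it was -0.49, with 2 higher and 31 lower, to be read against the same 32.2% and -0.20. In the shallower cells the surface protein gene Thy1 was lower (196 and 372, -0.57) as it was in the other T cells (-0.60).

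Most of the remaining lists lay close to the median of all genes in the shallower cells, where 44.7% of all genes were higher, or held few members. Residency, homing and adhesion genes were higher in 10 and lower in 10 (median 0.0062), natural killer receptors higher in 7 and lower in 9 (-0.046), cytokine receptors higher in 10 and lower in 13 (-0.038), and T cell transcription factors higher in 12 and lower in 17 (-0.029). Quiescence and survival genes were higher in 16 and lower in 14 (0.060), proliferation genes higher in 8 and lower in 7 (0.095), and glycolysis genes higher in 6 and lower in 10 (-0.24). Only 3 of 14 gamma delta and innate-like T cell genes reached 10 UMIs, with a median of -0.83. Over all gated cells the median of all genes was -0.20. There the medians were -0.42 for T cell transcription factors, -0.31 for cytokine receptors and -0.24 for residency genes. They were 0.12 for natural killer receptors, -0.20 for quiescence and survival, -0.15 for proliferation, 0.076 for glycolysis and -1.27 for gamma delta genes. 

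Interferon response genes had medians nearer 0 once the deep cells were left out. Type I interferon genes had a median of -0.29 over all gated cells, with 13 of 48 higher in FMT_young, and of -0.071 in the shallower cells, with 18 of 42 higher. Of all genes, 32.2% were higher over all gated cells and 44.7% in the shallower cells, so the type I counts lay near those shares. Without cells of 3 or more UMIs of other types' markers the type I median was 0.21, and with at least 2 UMIs required for each gate criterion it was 0.026. Interferon gamma response genes had medians of -0.39 (5 of 34 higher) and -0.13 (13 of 32 higher). In the shallower cells 0 of the 32 had an interval above 0 and 10 had one below it, against 2 and 1 of the 42 type I genes. The share of all genes with such intervals is not given here, so these counts are not read further. In T cells without CD8 transcript the type I and interferon gamma medians were -0.32 and -0.21. Among named members, Irf7 (29 UMIs in FMT_young and 19 in FMT_aged, 0.97) and Herc6 (37 and 27, 0.81) were higher, and Lgals3bp (18 and 45, -0.96), Irf8 (12 and 41, -1.41) and the proteasome activator subunit gene Psme1 (223 and 366, -0.36) were lower.

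**Figure D5:**
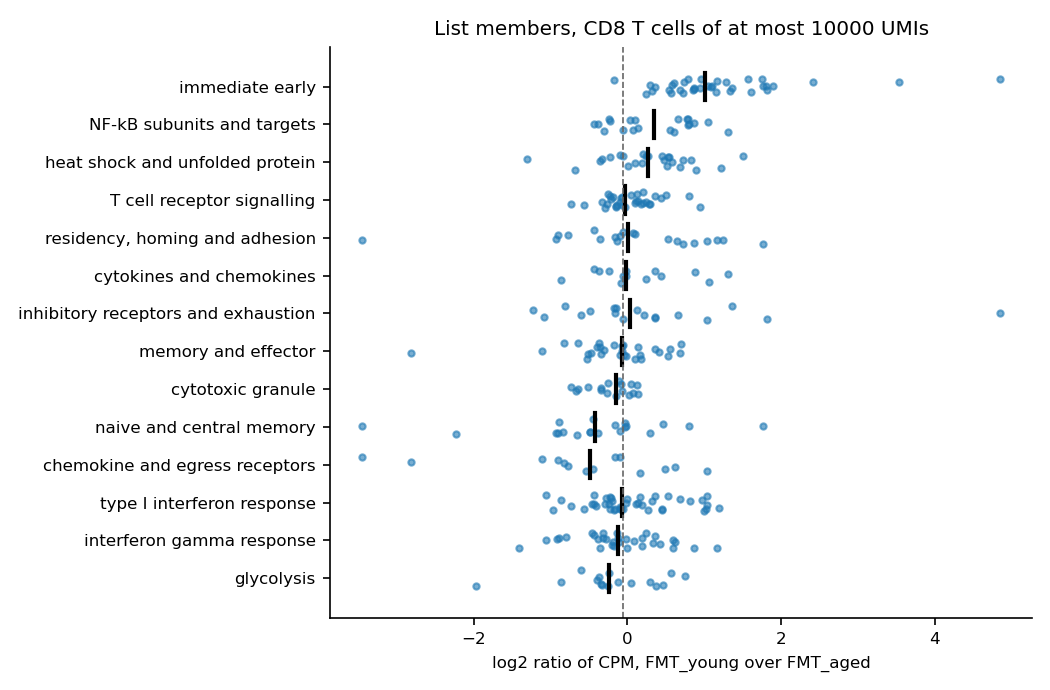
Log2 ratio of CPM, FMT_young over FMT_aged, for each member with at least 10 UMIs of 14 gene lists in CD8 T cells of at most 10000 UMIs; black bars are list medians and the dashed line is the median of all genes (-0.057). The immediate early median lies at 1.00, that of chemokine and egress receptors at -0.49 and that of type I interferon genes at -0.071.

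Receptor variable genes were seldom read by this 3' kit, and a clonal makeup cannot be given. Any Trav gene was seen in 12 FMT_young cells (6.67%) and 13 FMT_aged cells (5.73%), and any Trbv gene in 14 (7.78%) and 17 (7.49%). The most frequent beta variable genes were Trbv13-1 (2 FMT_young and 2 FMT_aged cells), Trbv16 (1 and 3), Trbv20 (1 and 3), Trbv2 (0 and 4) and Trbv3 (2 and 2). Among alpha variable genes, Trav3-3 was seen in 3 FMT_young and 2 FMT_aged cells, Trav12-2 in 1 and 1, Trav16 in 0 and 2, Trav16d-dv11 in 2 and 0, and Trav6n-5 in 0 and 2. No variable gene was seen in more than 5 cells.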

How the data were processed

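The authors deposited raw UMI counts per gene and barcode, with all barcodes of the kit; Cell Ranger 3.1.0 made them per the file headers, on mm10 per the submitters' processing notes. The deposited gene and barcode lists hold names, of unit other. Libraries were not scaled by the authors. Cells were called and gated here as the report states. The gated cells and gene lists (21 lists, 522 entries, 4 of them not in the files) were chosen with earlier results of these data known. UMIs were summed per library and set, divided by the set's total (CPM), and compared as log2 ratios with an exact conditional binomial interval; 0.5 was added to both counts where either was 0. Shares have Clopper-Pearson intervals, and a count of 0 is limited by 3 counts. Differences between shares have an approximate interval and list medians an order-statistic interval. Genes were named by a rule: with 50 UMIs or more and 50 CPM or more in 1 library, ranked by the bound of the interval that lies nearer 0, the first 12 per direction between libraries, 3 per list and 10 against T cells without CD8 transcript; in shallower cells these rules were applied after the data were seen. Leading genes of lists are named from the shallower cells, and a few members of each list were left out. Doublets were scored per library at 0.8% per 1000 cells and were not removed in the main values. Free RNA was taken from barcodes under 100 UMIs. Scripts were tested on simulated data. A planned share of cells with a further transcript is not reported here. Gene positions are from GENCODE on GRCm38. Python 3.11.15, numpy 2.4.6, scipy 1.17.1, pandas 2.3.3, scikit-learn 1.9.0, matplotlib 3.10.9, R 4.3.3 and edgeR 4.0.16 (TMM factors of the deposited counts only) were used.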

Additional observations from a re-analysis of the deposited data

Results flagged for a closer look

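Cd8b1 transcripts also occurred outside T cells. In plasma cells without a Cd3 UMI, 131 of 1971 FMT_young cells (6.65%, 5.59 to 7.84%) and 10 of 945 FMT_aged cells (1.06%, 0.509 to 1.94%) had a Cd8b1 UMI, at median depths of 11758 and 15487 UMIs. The 303 FMT_young and 491 FMT_aged B cells that were not also plasma cells by transcripts had it in 0.660% and 0.815%, at lower median depths of 3402 and 4662 UMIs. Cd8a was seen in 0.304% and 0.317% of the plasma cells. Among FMT_young plasma cells with at least 10 UMIs of Igkv1-117 the share with Cd8b1 was 110 of 821 (13.4%), and among those with fewer it was 21 of 1150 (1.83%). Their median depths were 17348 and 5118.5 UMIs, so these shares are not at like depth. The 4 FMT_aged cells with 10 or more had no Cd8b1 UMI. Cd8b1 lies 596 kb from Igkc on chromosome 6. The plasma cells were defined after the data were seen, and no cause was tested.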

How the results depend on the processing

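No paired analysis was possible because each group has 1 library, and no replicate could be left out. Subtracting free RNA from all gated cells was not run, because the scale exceeded 100% (144% in FMT_young, 129% in FMT_aged); it was run with the depth limit instead. Both settings with the 10000 UMI limit, and leaving out cells with other types' markers from every set compared, were chosen after seeing the data. Over 16 alternatives, 116 values of the main results were classed as the same, 52 as moved and 2 as reversed. Of the other values (single genes and the median of all genes), 582 were classed as the same, 301 as moved and 34 as reversed. Counts of genes have no interval, so their class does not refer to an error. The cause was not tested except where cells or genes were left out. CD8 T cells holding 3 or more UMIs of other types' markers were left out as planned, against unfiltered totals and unfiltered T cells, which by itself shifts what is compared: the share of called cells became -1.09 and of T cells -0.63 (log2), and genes higher and lower than in T cells without CD8 transcript 261 and 1015 (36 and 139 over all gated cells). With every set filtered alike these were -0.13, 0.0097, 12 and 58. Without those CD8 T cells the Gzmk share difference became 12.6 points, genes 2-fold higher 24 and lower 21, and the medians 1.02 (immediate early), 0.21 (type I interferon, reversed), -0.094 (interferon gamma) and -0.14 (memory). With doublets removed, 95 and 58 genes were 2-fold higher and lower, and interferon gamma and memory medians were -0.21 and -0.15. With 2 UMIs per gate sum, 68 genes were lower, and medians were 0.026 (type I, reversed), -0.12 and -0.049. With Cd8b1 required, type I was -0.079. At most 10000 UMIs gave 53 and 40 genes and medians of 1.00, -0.071 (type I), -0.13 and -0.075; with free RNA subtracted as well, 79 and 45 genes, 111 higher than in T cells without CD8, and 0.97, -0.089, -0.16 and -0.14. TMM scaling gave 52 genes lower, medians of 0.96, -0.087, -0.18 and -0.25, and 0.0036 for all genes (reversed from -0.20). Means over cells gave 235 and 226 genes, 71 and 256 against T cells without CD8, and 0.96 and -0.22. A minimum of 200 UMIs gave 43, 14, 12 and 62 genes, and no minimum 1938, 2052, 351 and 492.

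Single genes that reversed follow. At most 10000 UMIs gave Fcnb -0.64, Lcn2 -3.60, S100a8 -2.13, S100a9 -2.89, Lyz2 -1.23, Herpud1 -1.31, Mcpt8 -0.96, Camp -2.0, Ngp -3.10, Ltf -5.78, Igha 1.21, Retnlg -4.87 and Prss34 -1.23. Without cells holding other types' markers, Fcgr4 was -0.70, Mmp9 2.47, Jchain 0.26, Herpud1 -1.23, Mcpt8 -0.11, Camp -2.28, Ltf -1.43, Ccl4 0.76, Gzmk 0.35, Igha 0.30, Retnlg -1.43 and Prss34 -0.70. With 2 UMIs per gate sum Mmp9 was 0.82 and Herpud1 -0.44, with doublets removed Herpud1 -0.19 and Retnlg -4.60, with TMM Jchain 0.15, and with means over cells Jchain 0.14, Herpud1 -0.44 and Ltf -0.76.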
